A study of Mus musculus with 4 samples.

Results

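The genes described here are those of cholesterol synthesis and of its control in mouse peritoneal macrophages: Hmgcs1, Idi1, Fdft1, Sqle, Lss and Cyp51, which encode enzymes, and Srebf2 and Insig1, which encode regulators. These 8 genes were listed by name, and a gene was given the value of its probe set, or of the probe set with the highest mean, among those annotated with a single gene symbol. This gave a value for 7 of the 8, out of 22180 genes in all. The probe set listed for Idi1, the isopentenyl diphosphate isomerase, also carries the symbol Gm13502, so Idi1 has no value of its own here. The 8 genes hold no lipoprotein receptor, so genes of LDL uptake are given as a separate list.

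Expression was measured in thioglycollate-elicited macrophages of wild type C57BL/6 mice (B6, substrain not given in the labels) and wild type 129S6/SvEvTac mice (129S6), to compare strains that differ in atherosclerosis on an apoE-null background. There was 1 array per strain and sex, 4 arrays in all, and each carried pooled RNA of 3 mice by the labels, whereas the published methods name a larger pool. All mice were 3 months old, ate regular chow, received 1 ml of 4% thioglycollate into the peritoneum and were lavaged with 10 ml of PBS after 4 days, and their cells spent the night on plates in medium with 10% serum before RNA was made. Every value therefore describes elicited, plated cells in the presence of serum, and no unelicited or sterol-starved group was part of the comparison.

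Cholesterol synthesis joins acetyl units to mevalonate, turns mevalonate into isoprenoids, couples these to squalene, and closes squalene to lanosterol, which later enzymes trim to cholesterol. The transcription factor SREBP-2, made from Srebf2, switches these genes on together when sterols in the endoplasmic reticulum run low. With sterols present, INSIG proteins hold SREBP and its escort SCAP in that membrane, and cells supplied with lipoprotein cholesterol, as macrophages often are, keep the pathway low.

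Start-site sequences are shown for 5 genes to present the short motifs that these genes have in common. Whether the motifs bear on the levels in the arrays was not tested. Each stretch has 150 bases, 5′ to 3′ on the strand of the gene, from RefSeq on assembly GRCm38.p6, and ends before the annotated start of the gene. Capitals mark CCAAT (or ATTGG, its other strand), TCACNCCA (or TGGNGTGA), a shortened form of the sterol regulatory element that SREBP binds, and CACGTG, an E-box that reads the same on both strands. No capitalised matches overlap.
Hmgcs1 (chr13:119690175-119690324, plus strand): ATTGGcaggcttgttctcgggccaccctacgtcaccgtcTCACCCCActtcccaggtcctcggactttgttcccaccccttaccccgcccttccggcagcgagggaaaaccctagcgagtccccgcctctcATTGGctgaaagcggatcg
Lss (chr10:76531415-76531564, plus strand): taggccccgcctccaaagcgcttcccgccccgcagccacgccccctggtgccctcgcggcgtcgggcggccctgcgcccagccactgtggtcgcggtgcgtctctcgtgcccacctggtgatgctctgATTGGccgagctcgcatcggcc
Cyp51 (chr5:4104698-4104847, minus strand): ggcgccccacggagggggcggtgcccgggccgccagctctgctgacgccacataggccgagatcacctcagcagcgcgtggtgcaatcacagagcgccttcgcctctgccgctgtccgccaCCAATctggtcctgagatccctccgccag
Srebf2 (chr15:82147107-82147256, plus strand): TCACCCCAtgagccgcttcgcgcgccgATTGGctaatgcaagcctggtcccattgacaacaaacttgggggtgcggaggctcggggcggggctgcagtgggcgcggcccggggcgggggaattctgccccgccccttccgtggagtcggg
Insig1 (chr5:28071196-28071345, plus strand): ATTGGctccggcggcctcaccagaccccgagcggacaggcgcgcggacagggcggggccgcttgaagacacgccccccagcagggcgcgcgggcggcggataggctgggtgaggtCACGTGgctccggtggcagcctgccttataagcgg
Windows of 300 bases (250 before and 50 after the start) were matched for 6 of the 8 genes, Idi1 being the sixth, and searched on both strands. CCAAT was in all 6, against 37.4% of 32851 windows of the table, and the GC box GGGCGG, not capitalised here, was in all 6 against 35.7%. The shortened sterol element was in the windows of Hmgcs1, with its first base at -137, and Srebf2, at -162, against 4.36% of all windows. CACGTG was in the Insig1 window, at -101, against 7.15%. In the windows of 12 other sterol synthesis enzymes CCAAT was found in 11, GGGCGG in 11, CACGTG in 3 and the shortened element in 1. These motifs were chosen after the windows had been read, and a match describes letters only.

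None of the 7 measured genes differed between the strains by the test (limma on all genes with Benjamini-Hochberg adjustment, called below 0.05), and none had an unadjusted p under 0.05. Over all 22180 genes, 0.338% were called higher and 0.514% lower in B6, and 16.3% had an unadjusted p under 0.05. The differences of the 7 genes ran from -0.17 to 0.53 on the log2 scale, with a median of -0.10 against -0.02 over all genes, and their median size without sign was 0.15 against 0.21. The levels had a feature in common over the arrays, in that the 129S6 male array lay above the 129S6 female array for all 7 genes. All values below are log2 probe set intensities, so a difference of 1 is a doubling, and levels of different genes are not set against each other. In RNA from whole dishes, fewer cells of a type and less RNA per cell cannot be told apart.

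Hmgcs1 encodes the synthase that makes HMG-CoA, the substrate of the rate-limiting reductase. It read 9.59 in the B6 male and 9.55 in the B6 female array, against 9.85 in the 129S6 male and 9.59 in the 129S6 female array. The 129S6 male array stood apart and the other 3 lay close together, and the strains did not overlap by the narrow gap between the B6 male and 129S6 female arrays. Hmgcs1 was thus the only measured gene with both B6 arrays below both 129S6 arrays, a position held by 26.1% of all genes. Its difference was -0.15 ± 0.16 (SE, 95% interval -0.60 to 0.29, adjusted p = 0.697).

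Fdft1 encodes squalene synthase, the first enzyme committed to sterols. It read 10.53 in the B6 male and 10.82 in the B6 female array, against 11.00 in the 129S6 male and 10.56 in the 129S6 female array. The strains overlapped, with the extremes formed by the male arrays. The difference was -0.10 ± 0.24 (95% interval -0.75 to 0.54, adjusted p = 0.865).

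Sqle encodes squalene epoxidase, a rate-limiting step after squalene. Its level was 9.07 in the B6 male and 9.22 in the B6 female array, against 9.49 in the 129S6 male and 9.15 in the 129S6 female array. Here too the male arrays were the extremes, and the female arrays lay close to each other. The difference was -0.17 ± 0.20 (95% interval -0.71 to 0.36, adjusted p = 0.715).

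Lss encodes lanosterol synthase, which closes the sterol rings. Its level was 8.88 in the B6 male and 9.23 in the B6 female array, against 9.31 in the 129S6 male and 9.09 in the 129S6 female array. The B6 male array was the lowest and the 129S6 male array the highest. The strains overlapped because the B6 female array lay above the 129S6 female array. The difference was -0.15 ± 0.21 (95% interval -0.71 to 0.42, adjusted p = 0.772).

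Cyp51 encodes lanosterol 14-alpha-demethylase, the first step after ring closure, and had the largest difference of the 7. It read 8.003 in the B6 male and 8.21 in the B6 female array, against 7.81 in the 129S6 male and 7.34 in the 129S6 female array. It was the only measured gene with both B6 arrays above both 129S6 arrays, as were 22.8% of all genes, and the 129S6 female array was the lowest of the 4. The difference of 0.53 ± 0.23 was a ratio of 1.44 (95% interval 0.94 to 2.22) and did not pass the test (unadjusted p = 0.0775, adjusted p = 0.361). Of all genes, 15.8% had a larger difference without regard to sign, while for the other 6 genes that share was 55.7% to 89.7%.

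Srebf2 encodes SREBP-2 itself and varied least. It read 10.53 in the B6 male and 10.44 in the B6 female array, against 10.63 in the 129S6 male and 10.42 in the 129S6 female array. The female arrays were nearly equal and the strains overlapped. The difference was -0.04 ± 0.16 (95% interval -0.47 to 0.39, adjusted p = 0.932).

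Insig1 encodes the membrane protein that retains SREBP and is itself an SREBP target. Its level was 10.49 in the B6 male and 10.79 in the B6 female array, against 10.66 in the 129S6 male and 10.27 in the 129S6 female array. The female arrays were the extremes, B6 high and 129S6 low, and the males lay between them. The difference was 0.18 ± 0.23 (95% interval -0.44 to 0.80, adjusted p = 0.747). For every measured gene except Cyp51 the interval stayed within 0.80 on either side of 0, and for Cyp51 it reached 1.15, so differences of these sizes were not excluded.

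**Figure D1:**
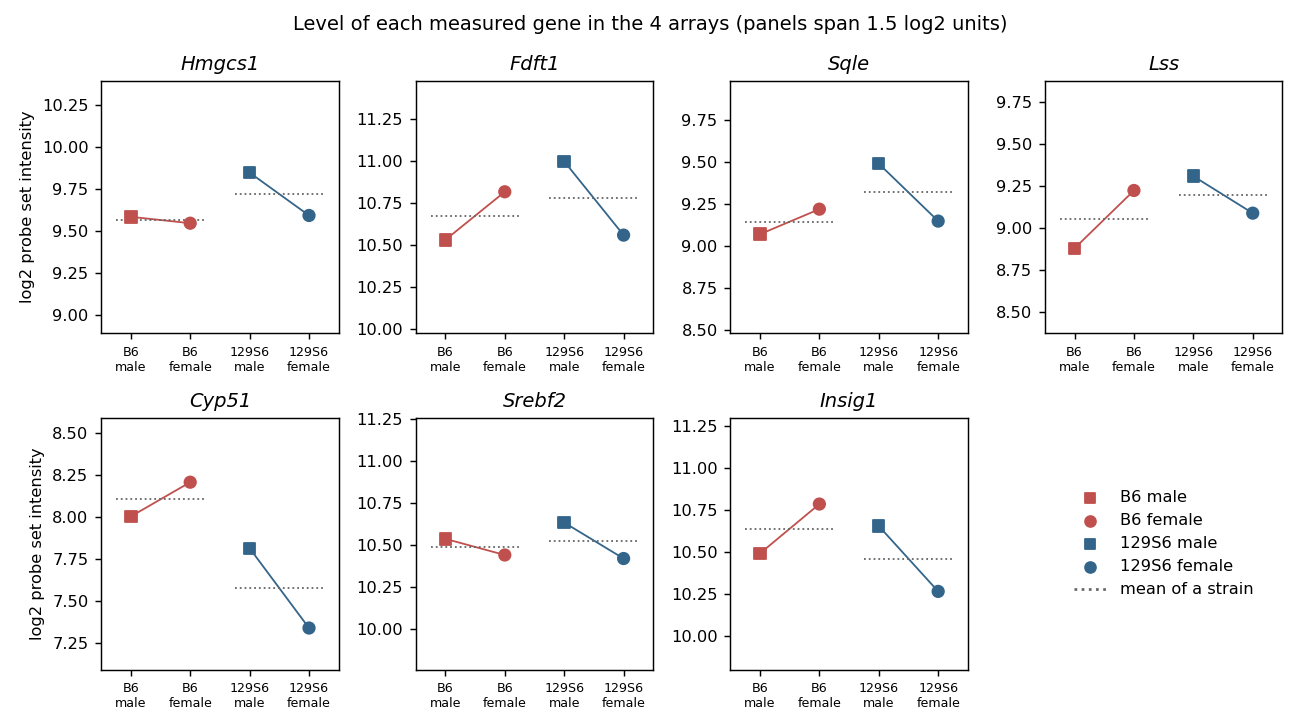
Log2 probe set intensity (vertical axes, each spanning 1.5 units) of the 7 measured genes in the B6 male, B6 female, 129S6 male and 129S6 female arrays, with 1 point per array, lines joining the arrays of a strain and dotted lines at the strain means. The blue line falls from male to female in all 7 panels and the red line climbs in 5, while only Cyp51 has both B6 points above and only Hmgcs1 both B6 points below the 129S6 points.

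**Figure D2:**
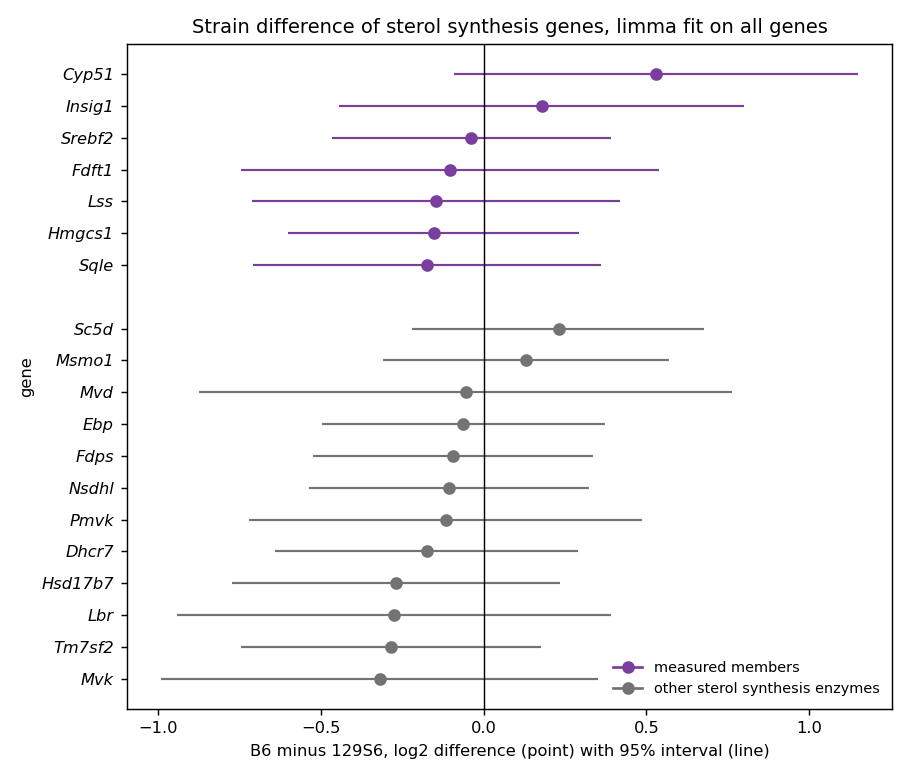
B6 minus 129S6 log2 difference (horizontal axis) with its 95% interval from the limma fit, for the 7 measured genes and the 12 other sterol synthesis enzymes. Every interval spans 0, and the points lie between -0.32 and 0.53.

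Within each sex the strain difference could only be described, since a single array stood for each strain and sex. In males, B6 was lower than 129S6 for 6 of the 7 genes, with differences from -0.47 (Fdft1) to -0.10 (Srebf2), and Cyp51 differed by 0.19. A lower value in B6 males was found for 51.7% of all genes and for 51.1% of the 11090 brighter genes, those with a mean at or above the median of 5.12, to which all 7 belong. In females, B6 was higher for 6 of the 7, from 0.02 (Srebf2) to 0.87 (Cyp51), and Hmgcs1 differed by -0.05, beside 47.7% of all genes and 53.6% of the brighter genes. The difference of Srebf2 in females turned under quantile normalization and under centring on the brighter genes, which left 5 of 7.

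B6 minus 129S6, taken with its sign, was higher in females than in males for all 7 genes, against 49.9% of all genes and 54.4% of the brighter genes. The size without sign was nevertheless larger in males for Hmgcs1, Fdft1, Sqle, Lss and Srebf2. The median of the female minus the male difference was 0.56 for the 7 genes, against -0.002 over all genes and 0.03 over the brighter genes. It was 0.12 for Srebf2, 0.22 for Hmgcs1 and 0.49 to 0.73 for Sqle, Lss, Cyp51, Insig1 and Fdft1. These last 5 genes had the male array above the female array in 129S6 and below it in B6. Such a crossed order was found in 23.5% of all genes and 24.6% of the brighter genes, and the male array was above the female array in 129S6 for 52% and 57.3%, against 7 of 7 here. The mean of the 7 genes, each centred on its own mean, was -0.08 in the B6 male and 0.09 in the B6 female array, against 0.16 in the 129S6 male and -0.17 in the 129S6 female array.

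**Figure D3:**
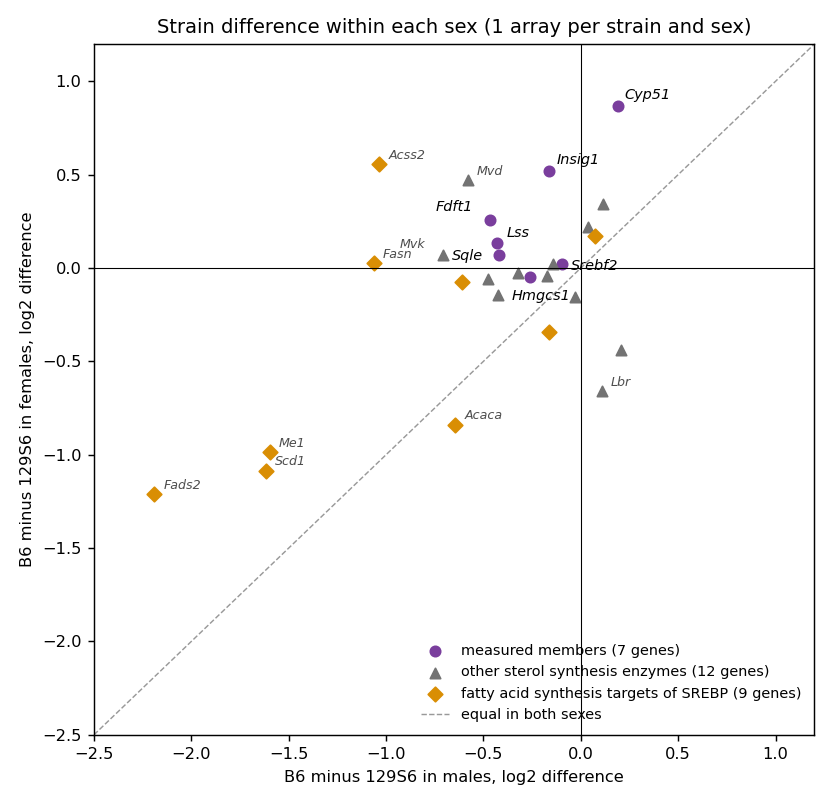
B6 minus 129S6 log2 difference in males (horizontal axis) and in females (vertical axis) for the 7 measured genes, 12 other sterol synthesis enzymes and 9 fatty acid synthesis targets of SREBP, each point a gene. All 7 measured genes lie above the dashed line of equal differences, while Fads2, Scd1, Me1 and Acaca lie below 0 on both axes.

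In the comparison of the sexes none of the 7 genes was called or had an unadjusted p under 0.05, where 0.00902% of all genes were called higher and 0.00451% lower in males (limma, 3 genes in all). Male minus female ran from -0.06 for Lss to 0.15 for Srebf2, with adjusted p from 0.901 to 0.984. For Lss the interval was -0.63 to 0.50 and for Srebf2 -0.28 to 0.58. For the 5 crossed genes this averaged a negative difference in B6 with a positive one in 129S6, such as -0.29 in B6 and 0.44 in 129S6 for Fdft1.

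The nearest profiles outside the lists used here, by Euclidean distance to the mean centred profile of the 7 genes over the 4 arrays among 10983 brighter genes, were those of Arhgef37 (0.008), Ptpdc1 (0.032), Cox15 (0.034), Mir5098 (0.036) and Trim45 (0.042). The 7 genes themselves lay 0.16 (Fdft1) to 0.53 (Cyp51) from that mean. Cox15, which encodes an enzyme of haem A synthesis, read 8.99 in the B6 male and 9.15 in the B6 female array, against 9.19 in the 129S6 male and 8.89 in the 129S6 female array. With only 4 arrays, many genes share any given order.

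Of 15 other sterol synthesis enzymes listed, 12 were measured and none was called or had an unadjusted p under 0.05. Their median difference was -0.11, close to that of the 7 genes, and they ran from -0.32 to 0.23. The largest differences were those of Mvk, mevalonate kinase (-0.32, adjusted p = 0.581), Tm7sf2, a sterol reductase (-0.29, 0.482), Lbr, the inner nuclear membrane reductase that shares its activity (-0.28, 0.636), and Hsd17b7, a 3-ketosteroid reductase (-0.27, 0.538). The signed difference was higher in females for 9 of these 12 enzymes, beside 49.9% of all genes and 54.4% of the brighter genes. Of the 12, 5 had the crossed order, beside 23.5% and 24.6%. The opposite order was found in 2, beside 5277 of all 22180 genes and 2148 of the 11090 brighter genes. Mvk read 7.55 in the B6 male and 7.85 in the B6 female array, against 8.26 in the 129S6 male and 7.78 in the 129S6 female array, the same order as Sqle. Lbr ran the other way, at 8.42 and 7.99 in the B6 male and female arrays, against 8.31 and 8.65 in the 129S6 male and female arrays.

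Enzymes that draw isoprenoids off the pathway were close between the strains. Of 8 listed, 7 were measured, none was called or had an unadjusted p under 0.05, and the median was -0.09. Ggps1, which makes geranylgeranyl diphosphate, had 0.33 (adjusted p = 0.426), Nus1, a subunit of the dolichol-forming prenyltransferase, -0.31 (0.422), Pggt1b, a subunit of a protein prenyltransferase, 0.17 (0.642) and Fnta, a subunit shared by farnesyl and geranylgeranyl transfer, -0.15 (0.693). The genes that control SREBP also had none called, and none at an unadjusted p under 0.05, among 9 measured of 11 listed, with a median of 0.09. Rnf145, a ubiquitin ligase of the sterol-sensing machinery, had 0.30 (adjusted p = 0.436), Insig2, the paralog of Insig1, 0.20 (0.589), Erlin2, part of a membrane complex that degrades sterol-sensing proteins, -0.20 (0.590), and Mbtps2, the protease that makes the last cut in SREBP, 0.19 (0.628). Srebf1, which encodes SREBP-1, read 8.15 and 8.07 in the B6 male and female arrays, against 8.15 and 8.09 in the 129S6 male and female arrays. All 4 arrays were thus within 0.1 for Srebf1, which was named after its values were seen.

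LDL uptake and endosomal cholesterol genes were represented by 6 measured of 9 listed, and the rest were not analysed here. None was called, 2 had an unadjusted p under 0.05 (16.3% of all genes), and the median was 0.09. Stard4, a cytosolic sterol carrier that is a known SREBP-2 target, read 7.25 in the B6 male and 7.23 in the B6 female array, against 7.95 in the 129S6 male and 7.81 in the 129S6 female array. The strains did not overlap, and the gap between them was wider than the spread in either strain, but its difference of -0.64 ± 0.16 did not pass (adjusted p = 0.188). Dab2, an endocytic adaptor that binds LDL receptor tails, read 8.81 in the B6 male and 8.01 in the B6 female array, against 9.43 in the 129S6 male and 9.83 in the 129S6 female array. It was lowest in the B6 female array, and its difference of -1.22 did not pass (adjusted p = 0.215). Npc1, the endosomal cholesterol exporter, had 0.34 (adjusted p = 0.380) and Lipa, the lysosomal lipase that frees cholesterol from its esters, 0.18 (0.661).

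Of 10 fatty acid synthesis targets of SREBP listed, 9 were measured and none was called. Their median was -0.52 against -0.02 over all genes, with -1.03 in males and -0.34 in females, 6 had both B6 arrays below both 129S6 arrays (26.1% of all genes), 1 had both above (22.8%), and 4 had an unadjusted p under 0.05 (16.3%). Fads2, the delta-6 desaturase, read 6.12 in the B6 male and 7.28 in the B6 female array, against 8.31 in the 129S6 male and 8.49 in the 129S6 female array. Scd1, stearoyl-CoA desaturase, read 5.93 in the B6 male and 6.73 in the B6 female array, against 7.55 in the 129S6 male and 7.81 in the 129S6 female array. For both genes the B6 male array was the lowest and the strains did not overlap. Their differences were -1.70 (adjusted p = 0.113) for Fads2 and -1.35 (0.0947) for Scd1. Me1, malic enzyme, read only 4.825 in the B6 male array, under the median level of 5.12 over all genes. The differences of Me1 and of Acaca, acetyl-CoA carboxylase, were -1.29 (0.112) and -0.74 (0.161). With a variance prior that follows the mean level, the adjusted p of these 4 genes was 0.0138, 0.0126, 0.0255 and 0.0229, in the same order. Over all 11 alternatives it ran from 0.012 to 0.285 for Fads2, 0.0126 to 0.285 for Scd1, 0.0255 to 0.433 for Me1 and 0.0229 to 0.367 for Acaca.

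Fasn, fatty acid synthase, and Acss2, which makes acetyl-CoA from acetate, had the crossed order seen in 5 sterol genes, as did Fads1. Thus 3 of these 9 genes had it, beside 23.5% of all genes and 24.6% of the brighter genes. Fasn read 7.98 in the B6 male and 8.80 in the B6 female array, against 9.05 in the 129S6 male and 8.78 in the 129S6 female array. Acss2 read 7.94 in the B6 male and 9.16 in the B6 female array, against 8.97 in the 129S6 male and 8.60 in the 129S6 female array. For both the B6 male array was low and the 129S6 male array was above the 129S6 female array. Fasn and Acss2 were singled out after their values were seen.

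The oxysterol, ester and export genes, 6 measured of 8 listed, held the only call among the cholesterol lists. It was 1 gene called lower in B6, beside 0.514% of all genes. In this list 4 had an unadjusted p under 0.05, beside 16.3% of all genes. Ch25h encodes cholesterol 25-hydroxylase, whose product 25-hydroxycholesterol binds INSIG and lowers SREBP processing. It read 3.65 in the B6 male and 5.18 in the B6 female array, against 6.34 in the 129S6 male and 7.28 in the 129S6 female array. The strains did not overlap, females were above males in each, and the B6 male reading lay within the 2.24 to 4.71 that Y-linked genes read in female arrays. The fitted difference was -2.40 ± 0.21 (adjusted p = 0.0438), and its size depends on the background in the B6 male array. The call was lost without the sex term (adjusted p = 0.114), after quantile normalization (0.0526), with every probe set tested (0.109), and, in fits that also lack the sex term, without the 129S6 female (-1.92, 0.309), 129S6 male (-2.87, 0.108) or B6 male array (-1.63, 0.159), and over all 11 alternatives the adjusted p ran from 0.00424 to 0.309. The other probe set of Ch25h read 3.68 in the B6 male and 3.29 in the B6 female array, against 4.29 in the 129S6 male and 4.48 in the 129S6 female array, all within those background readings, so it gives no second estimate. The other genes of this list went both ways and did not pass. Positive differences were those of Cyp27a1, sterol 27-hydroxylase (1.00, adjusted p = 0.238), Abcg1, a cholesterol exporter (0.79, 0.164), and Nceh1, a cholesterol ester hydrolase (0.52, 0.238). Abca1, the other main cholesterol exporter, differed by -0.43 (0.310), with the same sign in both sexes, and Nr1h3, which encodes the sterol-activated receptor LXR-alpha, by -0.09 (0.862).

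**Figure D4:**
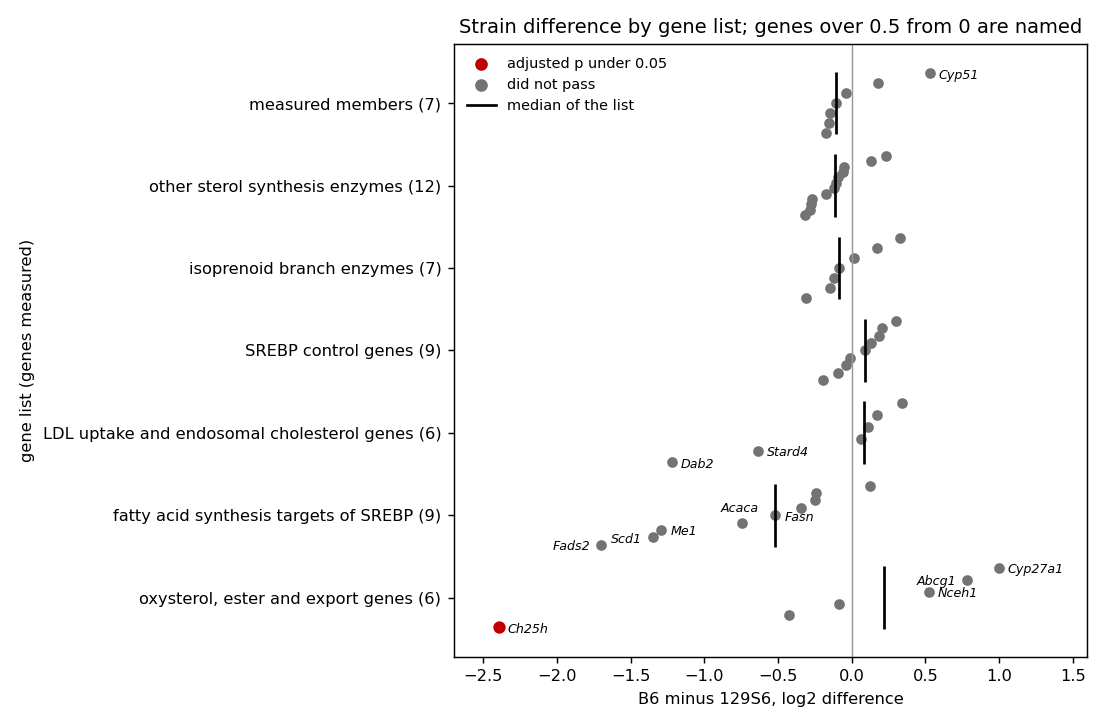
B6 minus 129S6 log2 difference (horizontal axis) of every measured gene in 7 lists (rows), with a black line at the median of each list, red for a gene with an adjusted p under 0.05 and grey for one without. The sterol synthesis genes gather around 0, Fads2, Scd1 and Me1 lie below -1 and Ch25h, at -2.40 with its B6 male reading at background, is the only red point.

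The arrays matched their labels: Xist was high only in the female arrays, Uty, Kdm5d and Eif2s3y only in the male arrays, and Ifi202b, weakly expressed in B6 mice, read 2.52 and 2.92 in B6 against 7.997 and 7.78 in 129S6. Across genes the arrays of a strain correlated at 0.988 (B6) and 0.989 (129S6) and those of different strains at 0.969 to 0.980. The 10 macrophage markers averaged 10.49 in both B6 arrays, against 10.32 in the 129S6 male and 10.52 in the 129S6 female array. That mean held members that went opposite ways, from -1.65 for Cd14 to 1.72 for Fcgr1. Of the 10, 8 had an unadjusted p under 0.05 (16.3% of all genes) and none was called.

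Other groups of genes differed between the arrays and moved partly with the results above. The 11 measured type I interferon-stimulated genes averaged 7.45 in the B6 male and 9.45 in the B6 female array, against 7.41 in the 129S6 male and 7.28 in the 129S6 female array. Their mean was thus high in the B6 female array alone. The centred mean of the 7 sterol genes was 0.09 in that array, but its extremes were in 129S6, at 0.16 in the male and -0.17 in the female array. Of the 11, 8 had the crossed order (23.5% of all genes) and 4 had both B6 arrays above both 129S6 arrays (22.8%). The 8 fibroblast markers averaged 6.24 in the B6 male and 5.63 in the B6 female array, against 7.91 in the 129S6 male and 8.09 in the 129S6 female array. Of these 8, 7 were lower in both B6 arrays (26.1% of all genes) and 3 were called lower (0.514%). Lum was the exception, at 3.68 to 4.05 in all arrays, near the readings of absent Y-linked genes. The 8 markers of resident peritoneal macrophages averaged 6.75 and 7.09 in B6 males and females, against 9.64 and 10.15 in 129S6 males and females. All 8 were lower in both B6 arrays (26.1% of all genes) and 4 were called lower (0.514%). Of 9 measured cell cycle genes, 7 were lower in both B6 arrays (26.1% of all genes), 2 were higher in both (22.8%), and the median was -0.63. In this list 7 had an unadjusted p under 0.05 (16.3% of all genes). Bub1b was among them but was higher in both B6 arrays (1.53, adjusted p = 0.182). Mki67, a proliferation marker, was the one called, at 6.25 and 7.41 in the B6 male and female arrays, against 9.17 and 9.76 in the 129S6 male and female arrays (-2.64, adjusted p = 0.042). Among 8 granulocyte and mast cell markers only Siglecf, a receptor of eosinophils, was called (1.88, adjusted p = 0.0438). Calls higher in B6 made up 0.338% of all genes. Both B6 arrays were above both 129S6 arrays for 5 of the 8 (22.8% of all genes). They were below for 1 (26.1%), S100a8 (-1.40, adjusted p = 0.0585). Prg2 and Epx read 2.89 to 3.47 in all arrays, near the readings of absent Y-linked genes. The fibroblast, resident cell and most cell cycle genes had the direction of Dab2, Stard4, Ch25h and most fatty acid genes, and the part of these cells, of cell division, of interferon and of single pools in any of the results was not tested.

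**Figure D5:**
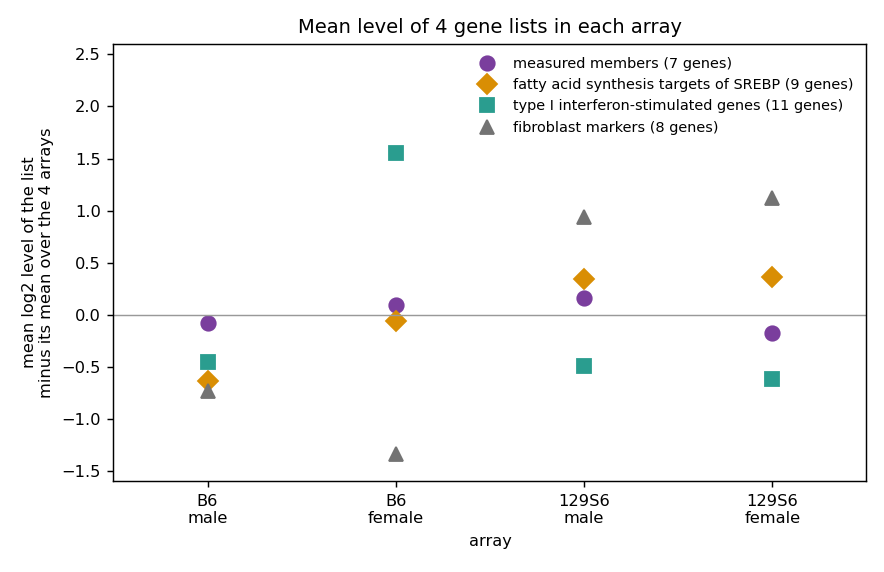
Mean log2 level of 4 gene lists in each array, minus the mean of the list over the 4 arrays (vertical axis), with the arrays along the horizontal axis and 1 symbol per list. The mean of the 7 sterol genes stays between -0.17 and 0.16. The mean of the interferon-stimulated genes is high in the B6 female array and that of the fibroblast markers in both 129S6 arrays.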

How the data were processed

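RNA of 4 pools, 1 per strain and sex, was hybridised to whole-transcript Affymetrix arrays. Per the labels, Expression Console was used by the authors, and the deposited table holds log2 intensities of probe sets. The software version, summarization and background correction are not given in the sources used here. Array medians of 4.85 to 4.87 point to a common scale, so no further normalization was applied. Of 41345 probe sets, 23521 had a single symbol, 1820 had several and 16004 were not listed in the annotation. The single-symbol probe set with the highest mean stood for a gene, which left 22180 genes, 1082 of them with a choice of probe sets. Arrays give no count depth, and their number limits the precision.

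Strain and sex were fitted as additive terms to all genes by lmFit and eBayes (limma 3.58.1, R 4.3.3), after a test on simulated data. There was 1 residual degree of freedom and 3.18 came from the prior. P-values were adjusted over all genes (Benjamini-Hochberg), with calls below 0.05. They cover only the spread between these arrays. With additive terms, the 1 residual degree of freedom is the difference between the sexes in the strain difference. A gene with a larger such gap therefore has a wider interval, so the crossed order and the strain test are not independent results. An exact permutation test of 2 against 2 arrays cannot go below 0.333 and was not used. A strain by sex interaction could not be tested.

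The member genes and lists were chosen with earlier results of these data known, so lists are given as counts and medians. Named genes are all members, the called genes and at most 4 of the largest differences per pathway list, and the 5 nearest profiles. Srebf1, Fasn, Acss2, Fads1, Abca1, Nr1h3 and the genes named from marker lists were chosen after their values were seen. Listed genes with no single-symbol probe set were not analysed here. Alternatives changed the terms, variance prior, robustness, filter on dim genes, probe set choice, scaling and arrays.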

Additional observations from a re-analysis of the deposited data

Results flagged for a closer look

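For some of the genes named above the strain difference had opposite signs in the sexes, with 1 array per strain and sex, and the difference between the sexes was not tested. As the female minus the male strain difference on the log2 scale, it was 0.73 for Fdft1 (0.26 in females and -0.47 in males), 0.49 for Sqle, 0.56 for Lss, 0.12 for Srebf2, 0.68 for Insig1 and 0.78 for Mvk. For Lbr it was -0.77, with -0.66 in females and 0.11 in males, so it ran against these 6. Among the genes named after their values were seen, it was 1.09 for Fasn, 1.59 for Acss2, 0.42 for Nr1h3 and -0.03 for Srebf1. The 5 nearest profiles have opposite signs by their choice, with 0.49 for Arhgef37, 0.56 for Ptpdc1, 0.45 for Cox15, 0.52 for Mir5098 and 0.42 for Trim45. Of all genes, 13.8% had a gap between the sexes larger than that of Fdft1 without regard to sign, 27.1% than that of Sqle and 75.6% than that of Srebf2.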

How the results depend on the processing

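None of the 7 sterol genes was called under any of the 11 alternatives, where the lowest adjusted p was 0.202 for Cyp51, up to 0.692, and 0.511 or more for the other 6. The call count over all genes was less stable. Against 189 called genes, there were 431 with no sex term, 1256 with a variance prior that follows the level, 589 among the brighter genes, 81 after quantile normalization, 0 with every probe set tested by limma (5707 of 41345 at an unadjusted p under 0.05) and 84 to 564 when an array was left out together with the sex term, which 3 arrays cannot carry with any residual spread, fewest without the 129S6 female and most without the B6 female array. A strain left with 1 array is then assumed to vary like the other. For the sexes, 3 called genes became 1 without the strain term and 5 with the variance trend.

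Differences near 0 changed sign when an array was left out: Fdft1 (-0.32 to 0.115, above 0 without the 129S6 male, 0.115, or B6 male array, 0.039), Lss (-0.32 to 0.025, above 0 without the B6 male array), Srebf2 (-0.15 to 0.069, above 0 without the 129S6 male, 0.069, or B6 female array, 0.01) and Insig1 (-0.016 to 0.37, below 0 without the 129S6 female array). The median of the 7 genes ran from -0.26 to 0.07. Medians moved for the isoprenoid enzymes (-0.15 to -0.026), for the SREBP control genes (-0.038 to 0.13 over left-out arrays, and -0.009 with the mean of the probe sets of a gene) and for the LDL uptake genes (0.031 to 0.10 over left-out arrays, and 0.039 after quantile normalization). The medians of the fatty acid targets (-0.85 to -0.36), of the oxysterol genes (0.12 to 0.34) and of the other sterol enzymes (-0.17 to -0.05) kept their sign. Those of the isoprenoid enzymes and of the LDL uptake genes moved but also kept their sign.

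Without the B6 female array and the sex term, Fads2 (-2.28, adjusted p = 0.012), Scd1 (-1.75, 0.0264), Me1 (-1.83, 0.0344) and Cyp27a1 (1.48, 0.0334) passed the test, while without the sex term alone their adjusted p was 0.107, 0.0993, 0.182 and 0.22. The variance trend brought Abcg1 (0.0164) and Nceh1 (0.0317) past it as well. Over the 11 alternatives the adjusted p ran from 0.0334 to 0.418 for Cyp27a1, 0.0164 to 0.355 for Abcg1 and 0.0317 to 0.587 for Nceh1. The crossed order of the sterol genes, tried after seeing the data, held in 5 of 7 after quantile normalization and after centring on the brighter genes, with a median gap of 0.53 and 0.51. The causes were not tested. The labels give no replicate numbers. The sex term pairs the arrays of the same sex in both strains, and dropping it changed no call of a sterol gene.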
